A study of Bos taurus with 24 samples.

Results

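NAIP (ENSBTAG00000003326) and GBP5 (ENSBTAG00000015060) are 2 of the 24616 genes quantified in bovine monocyte-derived macrophages (MDMs), and both encode proteins that defend the cytosol against bacteria. They were picked by identifier because earlier results of these libraries had shown both with a larger response to E. coli in high than in low responders at 3 and at 18 hours. That difference, and the values that make it up, are therefore described here without a test. Tests were kept to other contrasts, which are the E. coli effect averaged over both phenotypes and the changes with time. These contrasts use the same wells as that difference, and the averaged effect comes from the same fits. Their p-values are thus not fully free of the choice.

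MDMs came from lactating Holstein cows of 2 phenotypes, 3 cows called high responders and 3 called low responders by the nitric oxide their macrophages make on meeting E. coli. Blood monocytes were kept for 6 days with bovine granulocyte-macrophage colony-stimulating factor, and for each cow and time 1 well was left as control and another received paraformaldehyde-inactivated E. coli at 5 bacteria per cell. Wells were harvested at 3 or 18 hours, so that 8 conditions hold 3 libraries each, 24 in all. The bacteria were dead, which limits the cultures as a model of an infection, and the breed, sex and lactation were the same in all groups.

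Library totals ranged from 6297190 to 20936554 estimated counts, and no library had a mean correlation with the others of its condition under 0.92. Of 10 macrophage markers, 5 had an identifier, and their summed level was between 2304 and 4064 CPM (counts scaled to library size) in every library. Its members did not move alike, since with E. coli at 18 hours MSR1 was at 40.6 CPM against 735 CPM in control wells of high responders and at 55.1 against 535.5 CPM in low responders, while CD68 was at 2383 against 1547 and 2094 against 1361 CPM. The sum did not overlap between phenotypes at 18 hours, where it was 3163 to 3869 CPM in high and 2360 to 3128 in low control wells, and 3140 to 3723 in high and 2304 to 2980 in low exposed wells. At 3 hours it was 3977 to 4064 in high and 2591 to 3541 in low control wells, and the exposed wells overlapped. Of the B cell markers, CD79A was measured and reached 1.94 CPM at most, while the T, NK, dendritic cell, neutrophil and platelet markers were not analysed here. In bulk RNA, fewer cells of a kind and less RNA per cell cannot be told apart, and the part of these markers in the values below was not tested.

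NAIP belongs to the NOD-like receptors, which sense microbial molecules inside the cell. It binds bacterial flagellin and parts of the needle-like secretion systems of Gram-negative bacteria, then joins NLRC4 in an inflammasome, the platform on which caspase-1 is activated and IL-1β and IL-18 are matured. GBP5 is a guanylate-binding protein, one of the large GTPases that interferons induce in macrophages. Guanylate-binding proteins gather on bacteria and on lipopolysaccharide in the cytosol and aid the caspases that respond to it, and GBP5 is also known as a promoter of the NLRP3 inflammasome.

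How firmly each gene was counted differed. NAIP had whole estimated counts in 24 of 24 libraries, from 369 to 5509. GBP5 had between 21 and 6027, and in 9 of 24 libraries the estimate was not whole, which is how reads that match more than 1 gene enter the counting. Of those 9 libraries, 7 were exposed wells and 7 were of 18 hours. The fractions lay at most 0.44 from a whole number, and the spread that the counting program gave to the GBP5 estimate was at most 0.83 reads in a library, and in no library more than 0.255% of its count. GBP4, the other guanylate-binding protein that had an identifier, was fractional in 10 libraries, 6 of them shared with GBP5. Which genes share reads with GBP5 is not given here. These figures give how uncertain the split of shared reads was. How many GBP5 reads match more than 1 gene was not measured. The control wells of high responders rest on few counts, from 21 to 153.

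NAIP was low without bacteria and high with them, and the order of the phenotypes differed between both states. At 3 hours the control wells of high responders held 24.2, 35.7 and 50.1 CPM, and those of low responders held 46.1, 97.9 and 101.7 CPM. The exposed wells of high responders held 482, 505 and 544 CPM, against 192, 344.0 and 344.2 CPM in low responders. High responders thus started lower, with overlap, and ended above every low responder. At 18 hours control wells held 49.4, 58.3 and 61.2 CPM in high and 59.4, 70.1 and 89.2 CPM in low responders. Exposed wells then held 427, 452 and 531 CPM in high and 220.3, 303 and 334 CPM in low responders, again without overlap. The share of all genes whose levels stood apart between phenotypes is not given here, so gaps in levels are a description only.

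GBP5 was scarcer in the control wells of high responders and did not end higher. At 3 hours control wells held 1.36, 4.61 and 5.61 CPM in high responders and 9.70, 30.5 and 42.8 CPM in low responders. Exposed wells held 49.3, 227 and 321 CPM in high and 159, 307 and 577 CPM in low responders. The phenotypes stood apart in control wells, with high responders below, and overlapped with E. coli. As for NAIP, the share of all genes with such a gap in levels is not given, so this is a description only. At 18 hours control wells held 2.18, 3.91 and 10.04 CPM in high against 10.3, 27.2 and 34.4 CPM in low responders. Exposed wells held 73.4, 164 and 304 CPM in high and 73.5, 243 and 387 CPM in low responders. The gap in control wells was narrow at its edge, since the highest high and the lowest low responder were nearly level.

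**Figure D1:**
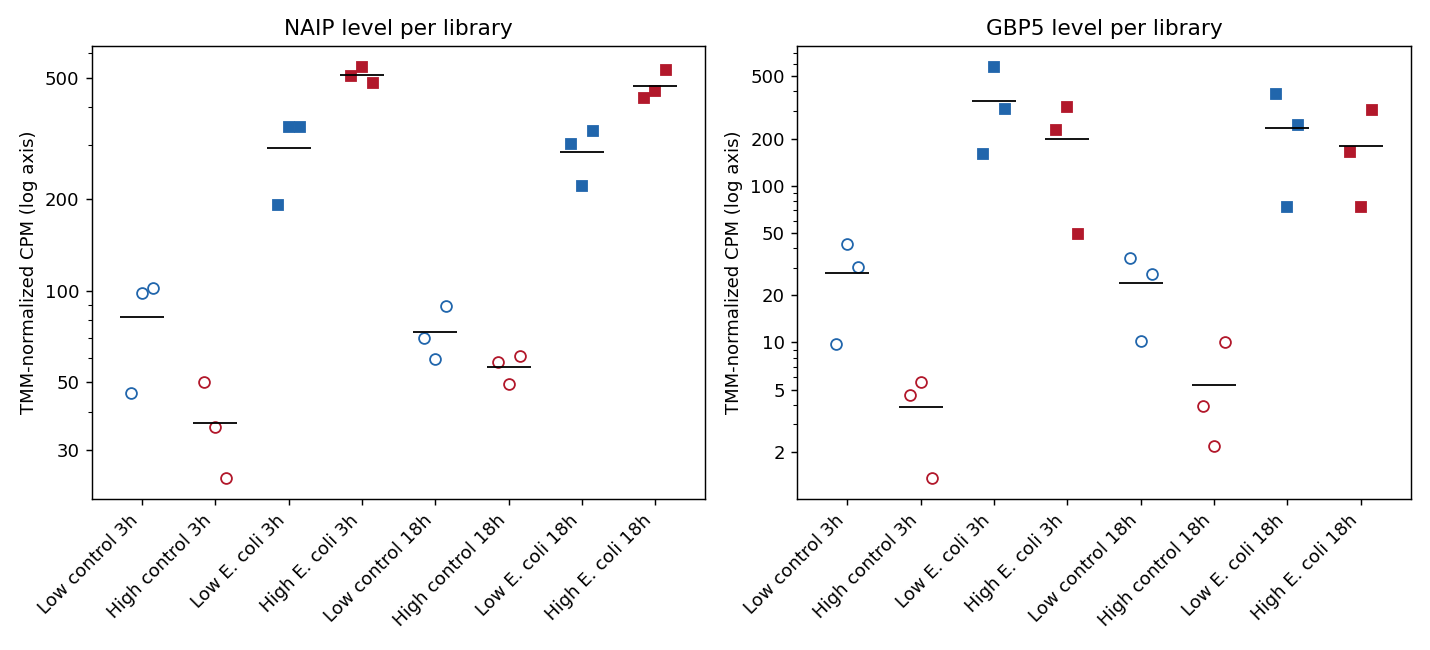
Level of NAIP (left) and GBP5 (right) in each of the 24 libraries, as TMM-normalized CPM on a log axis, with open circles for control wells, filled squares for E. coli wells, red for high and blue for low responders, and a bar at the mean of 3 libraries. NAIP of high responders exceeds that of low responders in exposed wells (482 to 544 against 192 to 344 CPM at 3 hours), and GBP5 of high responders is below that of low responders in control wells (1.36 to 5.61 against 9.70 to 42.8 CPM at 3 hours).

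Ordered by mean level, NAIP rose over the conditions from 36.7 ± 12.9 CPM (SD, n = 3) in high control wells at 3 hours to 510 ± 31.3 CPM in high exposed wells at 3 hours. In between came high control wells at 18 hours (56.3 ± 6.16), low control wells at 18 hours (72.9 ± 15.1) and 3 hours (81.9 ± 31.1), low exposed wells at 18 hours (286 ± 58.9) and 3 hours (293 ± 88.0), and high exposed wells at 18 hours (470.2 ± 54.4). Neighbours in this order overlapped, except at the step from control to exposed wells and at the step from low to high exposed wells.

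GBP5 gave another order. It was lowest in high control wells, at 3.86 ± 2.23 CPM at 3 hours and 5.38 ± 4.13 at 18 hours, followed by low control wells at 23.96 ± 12.4 at 18 hours and 27.6 ± 16.7 at 3 hours. Exposed wells came next, with high responders at 181 ± 116 at 18 hours and 199 ± 138 at 3 hours, then low responders at 234 ± 157 at 18 hours and 348 ± 212 at 3 hours. Neighbours did not overlap at 2 steps, between high and low control wells and between control and exposed wells. All 4 exposed conditions overlapped with their neighbours.

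Set against the other genes of the same library by TPM, transcript abundances that allow for length, both genes stood higher with E. coli. NAIP exceeded 68.0% to 84.1% of genes in control libraries and 90.04% to 96.2% in exposed ones. GBP5 exceeded 55.9% to 84.7% of genes in control libraries and 85.7% to 98.2% in exposed ones. These shares are over all genes listed, including those with few or no counts. Per length, GBP5 was 0.23 to 0.25 times NAIP in high control wells, as means of 3 ratios, and 0.78 to 0.79 times in low control wells. With E. coli the mean TPM ratio was 0.92 to 0.94 in high responders, and in low responders it was 1.91 at 18 hours and 2.79 at 3 hours. GBP5 was thus the less abundant transcript in all high control libraries, where the ratio reached 0.40 at most, and exceeded NAIP in all 3 exposed low responder libraries at 3 hours, where it was at least 2.035.

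E. coli raised both genes when averaged over phenotypes. NAIP rose by 2.91 on the log2 scale (SE 0.13, adjusted p = 5.432e-07) at 3 hours, or 7.50-fold, and by 2.50 (SE 0.07, adjusted p = 3.551e-09) at 18 hours, or 5.67-fold. GBP5 rose by 4.69 (SE 0.13, adjusted p = 5.539e-08) at 3 hours, or 25.7-fold, and by 4.13 (SE 0.10, adjusted p = 1.997e-09) at 18 hours, or 17.5-fold. A gene was called at an adjusted p below 0.05 with a fold change above 1.5, and 13.5% of the 11264 genes tested at 3 hours and 15.1% of the 11759 at 18 hours were called higher. In size, the GBP5 change exceeded that of 99.5% of tested genes at 3 hours and 98.6% at 18 hours, and that of NAIP exceeded 98.2% and 94.9%. Both rose in 12 of 12 pairs of wells. In TPM, which are not scaled for composition, the median change of all tested genes shifted from −0.06 to −0.48 at 3 hours and from −0.01 to −0.28 at 18 hours on the log2 scale, and NAIP and GBP5 shifted with it, to mean changes of 2.43 and 4.16 at 3 hours and 2.23 and 3.84 at 18 hours.

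The change per cow, taken from log2 CPM with a prior count of 2 that understates changes from low levels, shows the pattern for which the pair was picked. At 3 hours NAIP changed by log2 values of 3.33, 3.92 and 4.31 in high and 1.76, 1.81 and 2.05 in low responders. At 18 hours the NAIP changes were 2.87, 3.11 and 3.19 in high and 1.89, 1.90 and 2.11 in low responders. GBP5 changed at 3 hours by 5.02, 5.57 and 5.79 in high and 3.33, 3.75 and 4.01 in low responders. At 18 hours the GBP5 changes were 4.90, 4.97 and 5.34 in high and 2.82, 3.15 and 3.49 in low responders. Every high responder changed more than every low responder in both genes at both times, a pattern that 8.75% of tested genes had at 3 hours and 10.5% at 18 hours.

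**Figure D2:**
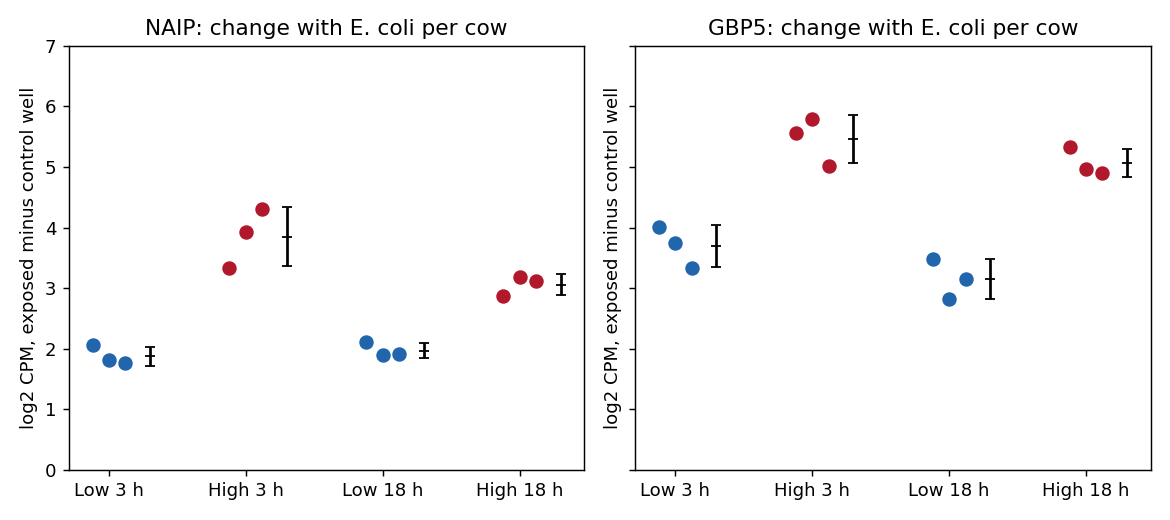
Change of NAIP (left) and GBP5 (right) with E. coli for each cow, as log2 CPM of the exposed minus the control well, with the mean and SD of 3 cows beside the points. High responders (red) lie above low responders (blue) in all 4 comparisons, and the NAIP changes of high responders reach from 2.87 at 18 hours to 4.31 at 3 hours.

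As fitted, the NAIP effect was 15.2-fold in high and 3.70-fold in low responders at 3 hours, and 8.32-fold and 3.86-fold at 18 hours. The GBP5 effect was 50.8-fold in high and 13.02-fold in low responders at 3 hours, and 34.4-fold and 8.89-fold at 18 hours. The difference between the log2 effects was 2.04 (SE 0.24) for NAIP and 1.96 (SE 0.24) for GBP5 at 3 hours, and 1.11 (SE 0.13) and 1.95 (SE 0.20) at 18 hours. At these times 0.178% and 1.34% of all tested genes were called with a larger effect in high responders. The GBP5 value was nearly the same at both times and that of NAIP was smaller at 18 hours, a change that was not tested.

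A difference between effects can come from the control wells, the exposed wells or both. For NAIP at 3 hours, high responders were lower by 1.13 on the log2 scale in control wells (a level 2.19 times higher in low responders) and higher by 0.85 in exposed wells (1.80 times). At 18 hours the NAIP control wells differed by −0.36 and the exposed wells by 0.73, so most of the NAIP difference then lay in exposed wells. For GBP5 the high minus low difference was −2.76 in control and −0.99 in exposed wells at 3 hours, and −2.22 and −0.30 at 18 hours. High responders thus had less GBP5 on average in every state, 6.76 times less in control wells at 3 hours and 4.66 times less at 18 hours, so that their larger fold change started from a lower control level.

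Averaged over both wells of a cow, the high minus low difference in NAIP was −0.14 on the log2 scale at 3 hours and 0.19 at 18 hours. For GBP5 it was −1.87 at 3 hours and −1.26 at 18 hours. These are given without a test. They share their wells with the difference that chose the genes, as do the averaged E. coli effects.

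The genes also differed in how far cows of 1 phenotype spread. The highest of 3 libraries held 1.13 to 2.21 times the lowest for NAIP, and 3.34 to 6.501 times for GBP5. The SD of log2 CPM within a condition had a median of 0.30 for NAIP and 1.06 for GBP5. The SD of the GBP5 change per cow was much smaller, at 0.23 to 0.40, against 0.12 to 0.49 for NAIP. The GBP5 level thus varied between cows in control and exposed wells alike, while the change within a cow varied little.

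Library codes show which wells carried the GBP5 spread. Each code has a number, which was used to pair the wells of a cow at one time, and a letter. In high responders the control wells with the letter I and their exposed partners were lowest for GBP5 in all 4 conditions, and those with A were highest. In low responders the pairs with A were lowest in all 4 conditions, at 9.70 and 10.3 CPM in control wells and 159 and 73.5 CPM in exposed ones, and those with I were highest. The labels do not say whether a letter marks the same cow at both times. NAIP was lowest in the A pairs of low responders in all 4 conditions too, from 46.1 CPM in control to 220.3 CPM in exposed wells.

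Neither gene was called between 3 and 18 hours in control wells, where 0.0259% of 11581 genes were called in either direction. The log2 change from 3 to 18 hours was 0.24 for NAIP (SE 0.22, adjusted p = 0.8248) and 0.16 for GBP5 (SE 0.49, adjusted p = 0.9684). For GBP5 this sign rests on single libraries, since leaving out one at a time gave −0.25 to 0.39. In exposed wells, where 28.7% of 11462 genes were called, NAIP differed by −0.09 (SE 0.15, adjusted p = 0.6799) and GBP5 by −0.36 (SE 0.52, adjusted p = 0.6031). Each cow gave wells at both times, but these fits hold no term for the cow, so the spread between cows enters the SE. A missing call is therefore no sign that a level stayed the same.

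The change of the averaged E. coli effect with time, tested in pairs of wells, was −0.36 for NAIP (SE 0.14, adjusted p = 0.0668) and −0.51 for GBP5 (SE 0.17, adjusted p = 0.02545). The GBP5 value passed the p threshold but, at a ratio of 0.70, not the fold threshold, so neither gene was called, where 26.8% of 11905 genes were. The comparisons at both times share no library, whereas the effects, levels and changes at 1 time use the same control wells.

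The levels of NAIP and GBP5 were compared across libraries. Their log2 CPM had a Pearson r of 0.91 over 24 libraries, which share the step from control to exposed. Over the 12 control libraries r was 0.86, and over the 12 exposed libraries it was 0.07. Over the 12 changes per cow, 2 for each letter and phenotype, r was 0.87. That value holds the gap between phenotypes for which both genes were picked, so it is no independent sign that their changes go together. Within a phenotype the exposed libraries did vary together, with an r of 0.59 in the 6 high and 0.77 in the 6 low responder libraries, and the control libraries had an r of 0.66 and 0.86. The r of 0.07 thus pools phenotypes that differ in opposite directions, with NAIP higher and GBP5 lower on average in high responders. These are descriptions across libraries that hold time and cow in common.

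**Figure D3:**
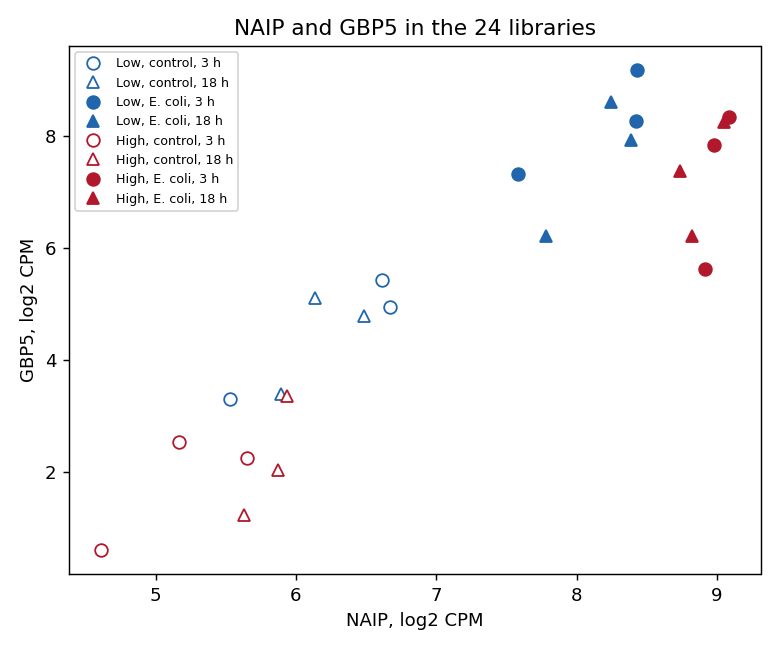
GBP5 against NAIP in the 24 libraries, both as log2 CPM, with open symbols for control and filled ones for E. coli wells, circles for 3 and triangles for 18 hours. Control libraries line up (r = 0.86, n = 12) with low responders (blue) towards the upper right, and exposed libraries form a group per phenotype (r = 0.59 in high and 0.77 in low responders, n = 6 each), with high responders (red) to the right of low responders.

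The genes most like each member were sought among 11217 genes, of which 2220 had a symbol. Those named here are the first 5 with a symbol. Over 24 libraries the NAIP level was most like that of ACOD1, the enzyme that makes itaconate in activated macrophages (r = 0.98), DUSP16, a phosphatase of stress kinases (r = 0.97), RHBDD1, an intramembrane protease (r = 0.97), ENTPD7, a nucleotide-cleaving enzyme (r = 0.97), and SLC2A3, a glucose transporter (r = 0.97). GBP5 ranked 180 by this measure. Among genes with a symbol, the GBP5 level was most like that of CASP4, the caspase that binds lipopolysaccharide (r = 0.95), TRIM25, a ubiquitin ligase of the RIG-I pathway (r = 0.94), RNF114, another ubiquitin ligase (r = 0.94), NFKBIZ, a nuclear regulator of NF-κB targets (r = 0.93), and UPB1, an enzyme of pyrimidine breakdown (r = 0.92). Of all genes these ranked 2, 4, 5, 8 and 11, with genes that have no symbol between them, and NAIP ranked 30. The median over all genes was −0.09 for NAIP and −0.08 for GBP5, and each r holds the step from control to exposed wells.

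By the 12 changes per cow other genes came first. The NAIP change was most like that of TBC1D9 (r = 0.96), the transcription factor TCF7L2 (r = 0.95), FOSL2, a part of AP-1 (r = 0.95), NAB1, a co-repressor of early growth response factors (r = 0.94), and DENND3, a regulator of Rab GTPases (r = 0.93). The GBP5 change was most like that of IRF1, a transcription factor of interferon-induced genes (r = 0.96, first of all 11217), then SERPINB2, a protease inhibitor (r = 0.93), PIK3AP1, an adaptor of PI3 kinase (r = 0.92), PLSCR4, a phospholipid scramblase (r = 0.92), and NAB1 (r = 0.91). NAB1 was the gene both shared. These changes hold the gap between phenotypes for which the pair was picked, so genes with a like gap rank high by that choice. The ranks are therefore a description and no independent sign of a link.

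The pathways around the pair were followed with 88 symbols in 6 lists, of which 32 had an identifier and 30 were tested. The symbols came from shortened copies of the study's tables, 1 of them ordered in part by the study's own test at 18 hours, so that genes with a difference at that time were more often named, and the counts are no independent sign of a direction. NLRP6 and TLR5 had too few counts for a test, and NLRC4, CASP1 and GSDMD were not analysed here. Averaged over phenotypes, 18 of the 30 were called higher and 2 lower with E. coli at 3 hours, where 13.5% and 12% of all genes were. At 18 hours 19 were higher and 4 lower, against 15.1% and 21.4% of all genes. The median log2 change over the 30 was 0.69 and 0.73, and over all genes −0.02 at both times.

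Among the NOD-like sensors and their partners, NLRP3, the sensor of the best known inflammasome, rose by a log2 fold change of 4.27 at 3 hours and 2.31 at 18 hours. NLRC5, an activator of MHC class I genes, rose by 1.01 and 1.15. NOD2, a sensor of bacterial cell wall, was at 0.11 (adjusted p = 0.7187) at 3 hours and rose by 1.14 at 18 hours, and TXNIP, a binding partner of NLRP3, was at −0.20 (adjusted p = 0.1179) and rose by 0.77. Of the 4 tested, 2 were called at 3 hours and 4 at 18 hours.

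Of 6 tested caspases and products of pyroptosis, 4 rose and 1 fell at each time. These were not the same genes at both times, and the 1 that fell at 3 hours rose at 18 hours. IL1B, which encodes the precursor of IL-1β, rose by 7.09 and 6.21, CASP4 by 1.75 and 1.27, and CASP8 by 0.74 and 0.76. IL18 was at 0.24 (adjusted p = 0.2515) at 3 hours and fell by 0.66 at 18 hours, a call that was lost without 1 high responder pair (library number 94), where it was −0.50. Of the inhibitor of apoptosis family, to which NAIP belongs by its BIR domains, BIRC3 rose by 3.65 and 1.39, and BIRC5, known for its role in cell division, was at −0.07 (adjusted p = 0.5263) at 3 hours and fell by 1.97 at 18 hours.

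In the interferon axis, which drives guanylate-binding protein genes, 9 of 12 tested genes rose at 3 hours and 8 at 18 hours, with none lower. IRF1 rose by 4.32 and 3.95 and IRF8, a factor of the monocyte lineage, by 2.76 and 1.85. The kinase JAK2 rose by 2.06 and 0.71, and the receptor chain IFNAR2 by 1.68 and 0.75. BATF2 rose by 1.38 and 2.10, and PSMB9, a subunit of the immunoproteasome, by 0.63 and 1.24. Of 5 tested genes of sensing at the cell surface, 2 rose and 1 fell at 3 hours and 2 rose and 2 fell at 18 hours. TLR2 rose by 0.71 and 0.63, the adaptor TICAM2 rose by 0.62 and 0.85, the adaptor MYD88 fell by 0.68 and 0.84, and CD14 was at −0.09 (adjusted p = 0.5117) at 3 hours and fell by 0.75 at 18 hours. The TICAM2 call at 3 hours was lost without the pair with number 92 of either phenotype (0.57 each).

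GBP4 was not called for an E. coli effect at either time. Its averaged log2 change was 0.54 (adjusted p = 0.05031) at 3 hours and 0.23 (adjusted p = 0.1226) at 18 hours, beside 4.69 and 4.13 for GBP5. The GBP4 effect was 0.89 in high and 0.20 in low responders at 3 hours, and 0.70 and −0.24 at 18 hours. The difference between phenotypes, 0.69 and 0.95, was not called by edgeR (adjusted p = 0.498 and 0.08593). DESeq2 called it at 18 hours. By phenotype, GBP4 held 2.07 to 20.8 CPM in high and 18.8 to 51.4 CPM in low control wells at 3 hours, and 3.16 to 14.9 against 33.9 to 52.9 CPM at 18 hours. In exposed wells it held 5.08 to 23.5 CPM in high and 34.4 to 50.9 CPM in low responders at 3 hours, and 8.65 to 18.0 against 29.4 to 39.8 CPM at 18 hours. GBP4 of high responders was thus below that of low responders in exposed wells at both times and in control wells at 18 hours, and overlapped in control wells at 3 hours. The gene was singled out after its values were seen. The share of all genes with such gaps in levels is not given, so they are a description only.

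**Figure D4:**
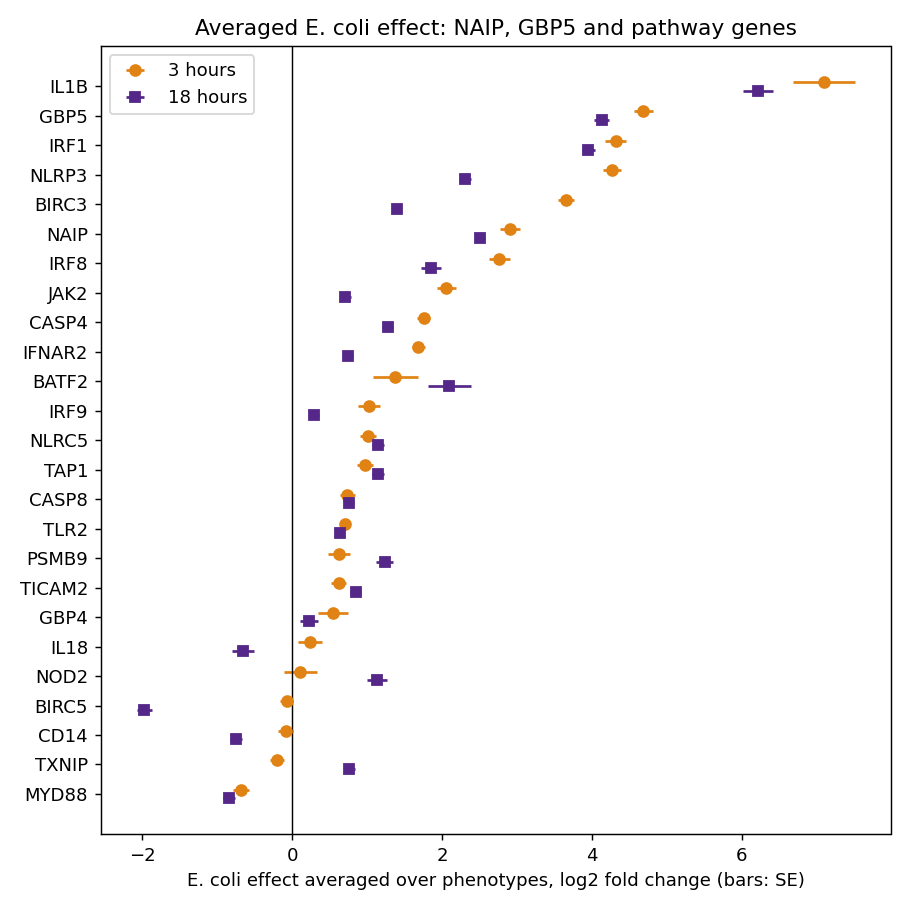
E. coli effect averaged over phenotypes for NAIP, GBP5, GBP4 and the list genes named in the text, as log2 fold change with its SE, at 3 hours (orange circles) and 18 hours (purple squares), ordered by the value at 3 hours. GBP5 (4.69 and 4.13) stands second to IL1B (7.09 and 6.21), and NAIP (2.91 and 2.50) lies near IRF8 at 3 hours. GBP4 (0.54 and 0.23) was not called at either time.

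The lists were also tested for the phenotype difference by which NAIP and GBP5 had been picked. At 3 hours 0 of 30 list genes were called by edgeR, though 7 passed an unadjusted p of 0.05, and with DESeq2 the 2 genes IRF1 and NLRC5 were called. At 18 hours 26 passed an unadjusted p of 0.05, and the 4 that were called all had a larger effect in high responders. Of all genes 1.34% were called so. An excess in the lists cannot be read from this, since a copy that gave symbols was ordered in part by the study's test. IRF1 differed by 1.27 (SE 0.16, adjusted p = 0.007991), from control wells at 85.0 ± 7.31 CPM in high and 127.6 ± 24.6 CPM in low responders to exposed wells at 2043 ± 147 and 1281 ± 156 CPM. TAP1, the peptide transporter of antigen presentation, differed by 0.77 (SE 0.15, adjusted p = 0.03817), CASP8 by 0.67 (SE 0.13, adjusted p = 0.03817) and IRF9, a part of the interferon-stimulated factor ISGF3, by 0.59 (SE 0.12, adjusted p = 0.04022). All 4 owed their symbol to the copy ordered in part by the study's test at 18 hours. Without a term for each cow none of them was called (adjusted p = 0.1134 for IRF1 to 0.4589 for IRF9), and with 1 cow left out IRF1 alone was called every time (adjusted p up to 0.04905), while TAP1 (adjusted p from 0.06021) and IRF9 (from 0.05982) lost the call in 6 of 6 such fits and CASP8 in 5.

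Neighbouring genes were taken from the RefSeq order of a later assembly than that of the files. NAIP lies between BDP1, SERF1B and SMN2 on one side and GTF2H2, OCLN and MARVELD2 on the other. BDP1, a subunit of the RNA polymerase III factor TFIIIB, had averaged effects of 0.36 (adjusted p = 0.228) at 3 hours and 0.38 (adjusted p = 0.003356) at 18 hours, the latter under the fold threshold, and OCLN, a tight junction protein, had too few counts for a test. GBP5 lies beside GBP1 and, on the other side, a gene model with GBP6 as its synonym, for which no level was analysed here.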

How the data were processed

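The deposited tables give, for each of 24 libraries, the expected count, effective length and TPM of 24616 genes. The authors made stranded mRNA libraries, used Trimmomatic for trimming and STAR for alignment to UMD 3.1, and estimated expected counts and TPM with RSEM; FastQC 0.11.5 and DESeq2 1.22.2 are named in the submitters' notes. Expected counts are not normalized, TPM are scaled for length and to a fixed sum per library, and replicates were not pooled.

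Expected counts were rounded and fitted with edgeR 4.0.16 in R 4.3.3: TMM, its filter for low counts by condition, a quasi-likelihood test with 1 term per cow and 1 E. coli effect per phenotype, and Benjamini-Hochberg adjustment over all genes tested. Control and exposed wells with the same code number were paired: deviations from the condition means correlated at 0.33 to 0.73 in 12 same-number pairs, and at −0.56 to 0.00 in 24 others. Times were compared without a term for the cow. CPM are TMM-normalized, and log2 CPM use a prior count of 2. The fit was tested on simulated data. Totals per library limit the precision of low counts. With a term per cow, p-values rest on how the change with E. coli varied among these cows. In the comparisons of levels between times they rest on the spread between cows.

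The 2 genes and all lists were chosen with earlier results of these data known. Genes are named where they are the 2 members, where a list gene was called for the phenotype difference, where a list gene was among the 4 with the largest averaged effect per list and time, where they were among the 5 genes with a symbol most correlated with a member, and where they lie within 3 genes of one. GBP4 was singled out after its values were seen. Symbols were paired with 2803 identifiers from shortened copies of the study's tables, whose own fold changes and p-values were not used. Results for some genes are not reported here. Alternatives were RLE factors, other filters, DESeq2 1.42.0, length offsets, unrounded counts, no cow term and 1 fit of all libraries. Others were a term for library code, an adjusted p below 0.1, TPM, and leaving out each cow, pair of wells or library.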

Additional observations from a re-analysis of the deposited data

Results flagged for a closer look

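IRF1, TAP1, CASP8 and IRF9 are listed because their E. coli effects at 18 hours differed between high and low responders by the test of that difference. Their symbols came from the copy ordered in part by the study's own test at 18 hours, so these calls are no independent sign. The log2 difference, high minus low, was 1.27 for IRF1, 0.77 for TAP1, 0.67 for CASP8 and 0.59 for IRF9, with adjusted p from edgeR of 0.007991, 0.03817, 0.03817 and 0.04022. When single cows were left out, TAP1 and IRF9 lost the call in 6 of 6 fits, CASP8 in 5 and IRF1 in none. At 3 hours the same difference was 1.22 for IRF1 (adjusted p = 0.09876), 0.43 for TAP1 (adjusted p = 0.4209), 0.16 for CASP8 (adjusted p = 0.7531) and 0.11 for IRF9 (adjusted p = 0.9002). Whether the difference changed with time was not tested. With 3 libraries per condition, no single library was assessed as standing apart.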

How the results depend on the processing

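The averaged E. coli effects of NAIP and GBP5 kept their direction and call under every alternative run, with log2 values of 2.86 to 2.92 and 4.66 to 4.71 at 3 hours and of 2.48 to 2.52 and 4.11 to 4.17 at 18 hours over 10 settings, and 2.80 to 3.03, 4.60 to 4.78, 2.48 to 2.55 and 4.06 to 4.20 with each cow left out. Pairing by code number was checked because it was inferred within each phenotype and time, and the labels do not state it. Without the replicate block the averaged effects were 2.86 for NAIP and 4.71 for GBP5 at 3 hours and 2.51 and 4.17 at 18 hours. All were called, and the block changed no call of the members. The list genes called for the phenotype difference did change. At 3 hours their number went from 0 to 2 without a filter on low counts, with DESeq2 and at an adjusted p below 0.1, to 3 with all 24 libraries in 1 fit, and to between 0 and 5 with each cow left out, with 5 without the high responder pair 94. At 18 hours it went from 4 to 7 with RLE factors, to 11 without a filter and with DESeq2, to 13 at an adjusted p below 0.1, to 1 with all 24 libraries in 1 fit or a term for exposure by library code, to 0 without the replicate block, and to between 1 and 4 with each cow left out: 1 without high pair 91 or low pair 92, and 2 without high pair 93 or low pair 94. The log2 difference between 18 and 3 hours in control wells ranged for GBP5 from −0.25 to 0.39 with each library left out. With each pair of wells of 1 time left out, the change of the averaged GBP5 effect with time ranged from −0.61 to −0.42. This change passed both thresholds without low pair 91 of 18 hours (−0.59) or low pair 93 of 3 hours (−0.61). The causes were not tested. The phenotype differences of the members, which have no test, were 1.79 to 2.29 for NAIP and 1.77 to 2.10 for GBP5 at 3 hours, and 1.06 to 1.20 and 1.80 to 2.11 at 18 hours, with each cow left out. In TPM the fold of mean exposed over mean control level was 36.1 for GBP5 in high responders at 3 hours. Depth limits GBP5 most in high control wells, at 21 to 153 counts.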
